A study of Homo sapiens with 12 samples.

Results

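The 8 genes described here encode the nuclear and mitochondrial DNA topoisomerases TOP2A, TOP2B, TOP1, TOP1MT, TOP3A and TOP3B and the tyrosyl-DNA phosphodiesterases TDP1 and TDP2. They were taken by name, through the Ensembl identifiers of GENCODE 29, from the 58735 genes of each of the tables of expression values, and all 8 were present. RNA-seq was performed on poly-A selected RNA of SK-BR-3 cells, a HER2-amplified human breast cancer line, and of their epirubicin-resistant derivative SK/EPI. The resistant line had been derived from SK-BR-3 by prolonged culture in stepwise rising epirubicin, whereas SK-BR-3 was the drug-sensitive parent. In the other pair of groups, SK/EPI cells received either a control siRNA (SK/EPI-siNC) or an siRNA against BCRP (SK/EPI-siBCRP) with Lipofectamine RNAiMax for 48 h, so that both of these groups carry the resistant background. Each of the 4 groups held 3 libraries.

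SK/EPI is 1 derived line, and the sources do not say whether it is a clone or whether epirubicin was present at lysis. The labels name a single siBCRP without saying which siRNA sequence was used. They also do not say whether the triplicates came from separate cultures, so p-values measure only the spread between these libraries, which may be technical. In bulk RNA, fewer cells with a transcript and less of it per cell cannot be told apart.

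Topoisomerases relieve the torsion that builds up when the double helix is copied, transcribed and separated. They cut DNA through a tyrosine that stays covalently bound to the broken end, and then reseal it. TOP2A and TOP2B cut both strands and are the targets of anthracyclines such as epirubicin, which hold the enzyme on the cut DNA. TOP2A is made chiefly by dividing cells and peaks in G2 and mitosis, whereas TOP2B is also made by resting cells. TOP1 and the mitochondrial TOP1MT nick a single strand, and TOP1 is the target of camptothecins. TOP3A unlinks DNA strands together with BLM, RMI1 and RMI2, and TOP3B acts on RNA as well as DNA together with TDRD3. TDP2 removes the tyrosine remnant of trapped TOP2 and TDP1 that of trapped TOP1.

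The libraries held 15830381 to 20545811 reads on genes, and values are FPKM, that is fragments scaled by exon length and by a divisor the authors set for each library, which was not simply the reads on genes. Levels may therefore be set side by side between genes. The pairs SK-BR-3 with SK/EPI and SK/EPI-siNC with SK/EPI-siBCRP were deposited in separate tables, which were tested separately. ABCG2, the gene for BCRP, was 2.84, 3.47 and 2.91 FPKM in SK/EPI-siBCRP against 32.5, 32.7 and 33.7 in SK/EPI-siNC, a log2 fold change of -3.06 ± 0.06 (SE, n = 3 against 3, limma adjusted p = 5.93e-07). It was 32.7 to 35.9 FPKM in SK/EPI, and only 2 to 6 reads in any SK-BR-3 library. The breast epithelial markers EPCAM, KRT8, KRT18, KRT19 and ERBB2 all lay between 73.3 and 1719 FPKM in every library. ERBB2, the gene for HER2, fell from 658.9 to 133.1 FPKM in SK/EPI (log2 fold change -2.30) and KRT19 from 1651 to 509.1, whereas KRT8 (0.24) and KRT18 (0.75) rose and EPCAM (0.08) was not called. All 5 markers were lower after siBCRP, by 0.06 (EPCAM) to 0.44 (KRT19) on the log2 scale. Of 6 immune, stromal and endothelial markers, COL1A1 reached 1.60 FPKM and the others stayed under that, with PTPRC and CD68 at 0 to 0.0704 FPKM. PDGFRB (0.36) and PECAM1 (0.16) were higher and COL1A1 (-0.52) lower in SK/EPI, and CD3E (-0.19) was not called. After siBCRP none of these 4 was called by limma, at log2 fold changes of 0.02 for PDGFRB, 0.03 for PECAM1, -0.09 for COL1A1 and -0.01 for CD3E.

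TOP2A lies at chr17:40388516-40417950 on the minus strand (GRCh38, identifier ENSG00000131747, 6437 bases of merged exon). Its upstream sequence is shown because TOP2A was called lower in both comparisons, and that of its paralogue TOP2B because TOP2B moved in opposite directions. The inverted CCAAT box, ATTGG, is the letter pattern bound by NF-Y. The sequences are from RefSeq (GRCh38.p14), chr17:40417951-40418146 for TOP2A and chr3:25664908-25665157 for the farther of the pair of TOP2B starts listed, both read along the minus strand 5′ to 3′ and ending just before the GENCODE 29 gene. Capitals mark CCAAT or ATTGG.
TOP2A: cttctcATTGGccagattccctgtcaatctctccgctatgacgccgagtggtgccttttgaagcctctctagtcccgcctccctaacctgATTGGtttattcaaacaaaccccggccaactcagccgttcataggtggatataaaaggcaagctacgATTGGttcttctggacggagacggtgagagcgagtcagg
TOP2B: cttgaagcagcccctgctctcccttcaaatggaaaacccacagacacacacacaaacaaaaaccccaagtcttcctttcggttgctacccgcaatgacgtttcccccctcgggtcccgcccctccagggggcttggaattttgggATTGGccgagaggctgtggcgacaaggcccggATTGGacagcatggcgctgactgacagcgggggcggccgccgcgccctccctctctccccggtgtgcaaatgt
In the TOP2A stretch 3 ATTGG copies stood within 196 bases, and 1 more followed in the 54 bases between the GENCODE 29 and the RefSeq start. Over the full 250 bases before the RefSeq start TOP2A thus had 4 copies of CCAAT or ATTGG on both strands together. Of 35116 such windows in the RefSeq table, 32.0% held at least 1 copy and 0.874% held at least as many as TOP2A. The farther TOP2B window held 2 copies and the nearer 0. TOP2A also had 2 copies of TTTGAA or its reverse complement TTCAAA, the core of the cell cycle genes homology region. This pattern was present in 13.3% of windows, with 1.72% holding at least as many as TOP2A. The farther TOP2B window and the TDP1 window had 1 copy each of that pattern. The windows of TOP1, TOP3A, TOP3B and TDP2 held neither pattern. These matches describe letters in these windows only, and TOP1MT was not searched.

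TOP2A was the most highly expressed of the 8 genes in all 4 groups. In SK-BR-3 it stood at rank 189 among the 15823 tested genes by mean FPKM and in SK/EPI at rank 475. In SK/EPI-siNC it was at rank 409 of 16298 and in SK/EPI-siBCRP at rank 694. TOP1 came next in every group. In SK-BR-3 the order went on with TDP2 and TOP2B, whose libraries overlapped, then TDP1, TOP3A, TOP1MT and TOP3B. In SK/EPI it went on with TOP2B, then TDP2 and TOP3A, which overlapped, then TDP1, TOP1MT and TOP3B. In SK/EPI-siNC the libraries of TDP2 overlapped those of TOP2B, and those of TOP2B overlapped those of TOP3A, ahead of TDP1, TOP1MT and TOP3B. In SK/EPI-siBCRP TOP3A and TDP2 overlapped and were followed by TOP2B, TOP1MT, TDP1 and TOP3B. The mitochondrial TOP1MT therefore stood above TDP1 only in SK/EPI-siBCRP, where its lowest library still exceeded the highest TDP1 library.

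**Figure D1:**
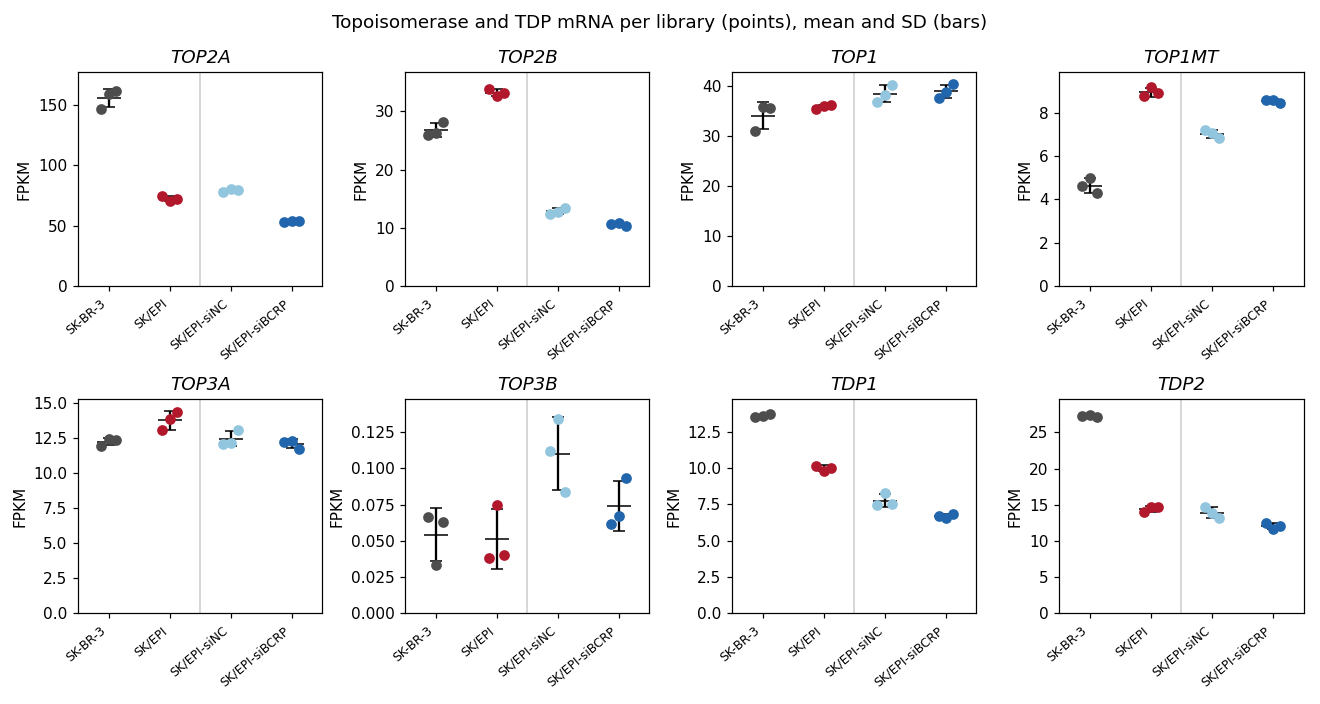
FPKM (vertical axis, from 0, its scale set per gene) of each of the 8 genes in the 3 libraries of each group (points), with the mean and SD (bars); the grey line separates the tables. TOP2A falls from 155.5 to 72.7 FPKM between SK-BR-3 and SK/EPI, TOP1 stays between 30.9 and 40.2 FPKM in all libraries, and TOP3B reaches at most 0.134 FPKM.

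The first question was how the targets of epirubicin and the enzymes that clear their trapped forms differed between resistant and parental cells. Of the 7 members that could be tested, 6 were called between SK/EPI and SK-BR-3, 3 of them higher (TOP2B, TOP1MT and TOP3A) and 3 lower (TOP2A, TDP1 and TDP2). Of all 15823 tested genes 74.9% were called in this comparison, 37.9% higher and 37% lower, so the members' share lay near that of genes at large. The groups did not overlap for 6 of the 7 members, the same 6 that were called, and for 77.7% of all genes. The median log2 fold change was 0.07 over the 7 members and 0.01 over all genes. Fold changes are on the log2(FPKM + 1) scale, which understates the change of low genes.

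TOP2A was 147, 159 and 161 FPKM in the 3 SK-BR-3 libraries. In SK/EPI it was 74.7, 70.8 and 72.4 FPKM. Every resistant library lay far below every parental library. The mean was 155.5 ± 7.66 FPKM in SK-BR-3 and 72.7 ± 1.97 in SK/EPI (SD, n = 3 each), which was 2.14-fold lower, with a log2 fold change of -1.09 ± 0.04 (SE, limma, Benjamini-Hochberg adjusted p = 1.78e-07). On this scale TOP2A was the sole member past an absolute log2 fold change of 1. With libraries scaled to equal reads without the mitochondrial chromosome TOP2A was at -0.99, and with limma voom on the reads TOP1MT was also past 1, at 1.04.

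TOP2B (chr3:25597905-25664907, minus strand, ENSG00000077097), the second anthracycline target, was 25.9, 26.3 and 28.1 FPKM in SK-BR-3. In SK/EPI it was 33.8, 32.7 and 33.1 FPKM. All resistant libraries were above all parental ones, opposite in direction to TOP2A. TOP2B rose by 0.30 ± 0.04 on the log2 scale (SE, n = 3 against 3, limma adjusted p = 0.000164), or 1.24-fold.

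Set against each other, the paralogues gave a ratio of TOP2A to TOP2B FPKM of 5.66, 6.03 and 5.72 in SK-BR-3. The ratio was 2.21, 2.17 and 2.19 in SK/EPI, below every parental library. The mean ratio was 5.80 ± 0.197 and 2.19 ± 0.0207 (SD, n = 3 each). TOP2A transcript remained the more abundant of the paralogues in all 12 libraries.

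**Figure D2:**
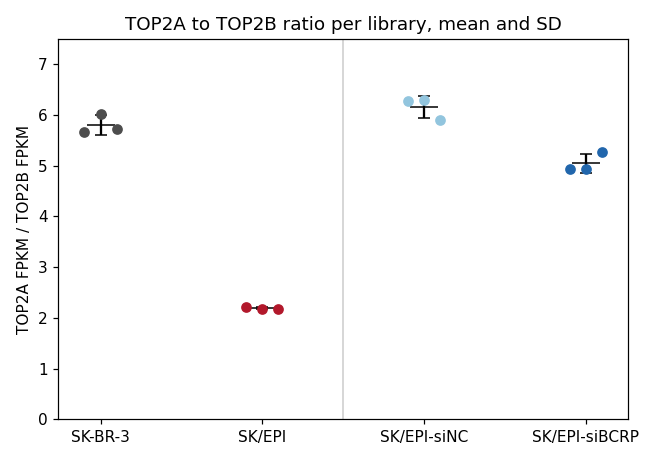
Ratio of TOP2A to TOP2B FPKM (vertical axis, from 0) in each library (points) with mean and SD per group (bars); the grey line separates the tables. SK/EPI lies at 2.17 to 2.21, SK-BR-3 at 5.66 to 6.03, and the siRNA-treated groups at 4.93 to 6.29.

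TDP2 (chr6:24649977-24667033, minus strand, ENSG00000111802), the phosphodiesterase that frees DNA ends from trapped TOP2, was 27.2, 27.4 and 27.2 FPKM in SK-BR-3. In SK/EPI it was 14.0, 14.7 and 14.7 FPKM. The groups stood well apart, and the spread within each was small. TDP2 fell 1.88-fold, with a log2 fold change of -0.87 ± 0.03 (SE, n = 3 against 3, limma adjusted p = 1.16e-07). TDP1 (chr14:89954939-90044768, plus strand, ENSG00000042088), which acts on trapped TOP1, was 13.5, 13.6 and 13.7 FPKM in SK-BR-3 and 10.2, 9.78 and 10.04 in SK/EPI. Its libraries also did not overlap, and it fell 1.36-fold, by 0.41 ± 0.03 on the log2 scale (SE, limma adjusted p = 1.2e-05). Both phosphodiesterases were thus lower in the resistant line.

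TOP1 (chr20:41028818-41124487, plus strand, ENSG00000198900) was 30.9, 35.7 and 35.5 FPKM in SK-BR-3 and 35.3, 35.9 and 36.2 in SK/EPI. The groups overlapped, and the first parental library stood below the rest. The log2 fold change was 0.07, with a 95% interval from -0.05 to 0.20 (n = 3 against 3, limma adjusted p = 0.25), and 0.01 without that SK-BR-3 library. This result depended on the scaling. The reads on genes summed to 99.8 to 101% of the total the authors had divided by in SK-BR-3 but to 92.8 to 95.4% in SK/EPI. With libraries scaled to equal reads on genes instead, TOP1 was called higher at a log2 fold change of 0.16 (adjusted p = 0.0238, median of all genes 0.06), and limma voom on the reads also gave 0.16 (adjusted p = 0.00425, median of all genes 0.10). 

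TOP1MT, the mitochondrial counterpart of TOP1 (chr8:143304384-143359979, minus strand, ENSG00000184428), was 4.63, 4.98 and 4.30 FPKM in SK-BR-3. In SK/EPI it was 8.77, 9.17 and 8.89 FPKM. It was the member with the largest rise, 1.93-fold, with a log2 fold change of 0.82 ± 0.05 (SE, n = 3 against 3, limma adjusted p = 3.43e-06). The share of reads on the mitochondrial chromosome was 4.18 to 4.23% in SK-BR-3 and 5.10 to 5.38% in SK/EPI, and its relation to TOP1MT was not tested.

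TOP3A (chr17:18271428-18315007, minus strand, ENSG00000177302), which works in the nucleus and in mitochondria, was 11.97, 12.4 and 12.4 FPKM in SK-BR-3 and 13.1, 13.9 and 14.4 in SK/EPI. The groups were close but did not overlap, and TOP3A rose by 0.16 ± 0.04 on the log2 scale (SE, n = 3 against 3, limma adjusted p = 0.0108). TOP3B (chr22:21957025-21982816, minus strand, ENSG00000100038) had only 4 to 9 reads in these 6 libraries, 0.0333 to 0.0750 FPKM, and was not tested, the group means of log2(FPKM + 1) differing by -0.00. Its exons overlap those of the antisense gene AC245452.1 over 90.7% of their length, which leaves 617 unshared bases. The library kit does not mark strand, so reads from the shared stretch cannot be assigned to either gene, and AC245452.1 itself was at only 36 to 104 reads over all 12 libraries. Of the 7 genes named in the lists used here whose exons were shared over more than 50%, 6 were under 1 FPKM in every library, whereas 6 of the 92 others were. The level of TOP3B is therefore uncertain. TOP2B shared 0.993% and TOP1 2.41% of exon bases with other genes, and the other members shared none.

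**Figure D3:**
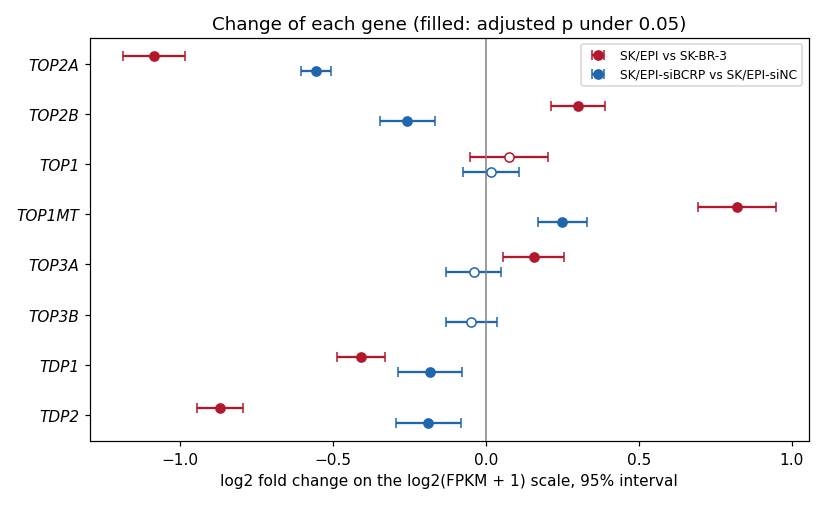
Log2 fold change on the log2(FPKM + 1) scale (horizontal axis) of each gene with its 95% interval, for SK/EPI against SK-BR-3 (red) and SK/EPI-siBCRP against SK/EPI-siNC (blue); filled points have a limma adjusted p under 0.05. TOP2A, TDP1 and TDP2 lie left of 0 in both comparisons, TOP1MT right of 0 in both, and TOP2B on opposite sides, at 0.30 and -0.26.

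The second question was what BCRP knockdown did to the same genes within the resistant line. All 8 members passed the filter, and 5 were called, 1 higher (TOP1MT) and 4 lower (TOP2A, TOP2B, TDP1 and TDP2). TOP3B passed only narrowly, mainly through SK/EPI-siNC, where its reads were more numerous (11 to 17, against 8 to 12 in SK/EPI-siBCRP). The test of TOP3B is thus not independent of the filter. Of all 16298 tested genes 38.1% were called, 19.4% higher and 18.7% lower. The groups did not overlap for 5 of the 8 members, the same 5 that were called, and for 50.9% of all genes. The median log2 fold change was -0.11 over the members and -0.00 over all genes. Leaving out SK/EPI-siBCRP replicate 2 left 3 members called. None of the 8 reached an absolute log2 fold change of 1, while 11 of all tested genes were higher and 56 lower by at least that much.

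TOP2A was 77.9, 80.2 and 79.6 FPKM in SK/EPI-siNC. In SK/EPI-siBCRP it was 52.9, 53.5 and 54.3 FPKM. The highest knockdown library was well below the lowest control library. TOP2A was 1.48-fold lower, with a log2 fold change of -0.56 ± 0.02 (SE, n = 3 against 3, limma adjusted p = 5.13e-06), the largest change among the called members.

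TOP2B was 12.4, 12.8 and 13.5 FPKM in SK/EPI-siNC and 10.7, 10.8 and 10.3 in SK/EPI-siBCRP. It fell by 0.26 ± 0.04 on the log2 scale (SE, limma adjusted p = 0.00175), with no overlap. The ratio of TOP2A to TOP2B was 6.27, 6.29 and 5.90 in SK/EPI-siNC and 4.94, 4.93 and 5.27 in SK/EPI-siBCRP. All knockdown libraries were under all control libraries in this ratio as well, with means of 6.15 ± 0.218 and 5.05 ± 0.190 (SD, n = 3 each). Across tables, TOP2B averaged 33.2 FPKM in untreated SK/EPI and 12.9 in SK/EPI-siNC, while TOP2A averaged 72.7 and 79.3. These levels come from separately normalized tables and were not tested against each other. The divisor of a library cancels in the ratio of TOP2A to TOP2B. Its mean was 2.19 in untreated SK/EPI but 6.15 in SK/EPI-siNC, where SK-BR-3 had 5.80. The low ratio of untreated SK/EPI was thus not seen in the same line with control siRNA. TOP2B in SK/EPI-siNC was also below its SK-BR-3 mean of 26.8 FPKM. The cause of this gap was not tested.

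TDP2 was 14.8, 13.9 and 13.1 FPKM in SK/EPI-siNC and 12.5, 11.7 and 12.1 in SK/EPI-siBCRP, a log2 fold change of -0.19 ± 0.05 (SE, limma adjusted p = 0.0149). TDP1 was 7.44, 8.27 and 7.56 FPKM in SK/EPI-siNC and 6.73, 6.59 and 6.81 in SK/EPI-siBCRP, a log2 fold change of -0.18 ± 0.04 (SE, limma adjusted p = 0.0164). Neither gene's groups overlapped, but both differences were small. Without SK/EPI-siBCRP replicate 2 neither was called, at adjusted p = 0.0522 for TDP2 and 0.0541 for TDP1.

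TOP1MT was 7.20, 7.07 and 6.82 FPKM in SK/EPI-siNC and 8.60, 8.59 and 8.45 in SK/EPI-siBCRP. Every knockdown library exceeded every control library, and TOP1MT rose 1.22-fold, with a log2 fold change of 0.25 ± 0.03 (SE, limma adjusted p = 0.00116). The mitochondrial chromosome took 3.58 to 3.68% of reads in SK/EPI-siNC and 3.73 to 3.84% in SK/EPI-siBCRP, and its part in this was not tested.

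TOP1 was 36.8, 38.2 and 40.2 FPKM in SK/EPI-siNC and 37.5, 38.7 and 40.2 in SK/EPI-siBCRP. The groups covered nearly the same range, with a log2 fold change of 0.02 and a 95% interval from -0.07 to 0.11 (limma adjusted p = 0.777). TOP3A was 12.1, 12.2 and 13.1 FPKM against 12.3, 12.3 and 11.7, a log2 fold change of -0.04 with a 95% interval from -0.13 to 0.05 (limma adjusted p = 0.457). For both genes the intervals exclude the size of change measured for TOP2A. TOP3B had 11 to 17 reads in SK/EPI-siNC and 8 to 12 in SK/EPI-siBCRP, and its log2 fold change of -0.05 was not called (limma adjusted p = 0.339). The value depended on the pseudocount at so few reads, and was -0.27 with a pseudocount of 0.1 (adjusted p = 0.22) and -0.56 ± 0.36 (SE) with limma voom on the reads (adjusted p = 0.217). No difference in TOP3B was detectable at this depth.

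The comparisons share no libraries. TOP2A, TDP1 and TDP2 were lower in both, TOP1MT was higher in both, and TOP2B was higher in SK/EPI and lower after siBCRP. The difference between the comparisons in their effect was not tested.

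The proteins that work beside the topoisomerases were examined in lists by function. In SK/EPI, 15 of 20 G2/M and mitosis genes were lower than in SK-BR-3, 4 were higher and 1 was not called. Over all genes 37% were lower and 37.9% higher. The median of this list was -0.33 on the log2 scale, against 0.01 over all genes. The proliferation antigen MKI67 (37.2 to 14.3 FPKM, log2 fold change -1.32) and the kinetochore protein CENPF (-0.88) fell the furthest. CCNB1, the mitotic cyclin, rose by 0.44 and the kinesin KIF20A by 0.29. MKI67 was the only gene of this list with a larger fall than TOP2A. NUSAP1 and PRC1, also on this list, share 62.2% and 58.4% of exon bases with other genes, so their levels are uncertain. Of 13 condensin and cohesin subunits, which shape chromosomes alongside TOP2A, 8 were lower and 5 higher, with a median of -0.21. The condensin ATPases SMC4 (-0.97) and SMC2 (-0.75) fell the furthest, whereas the cohesin subunit STAG2 (0.51) and the condensin subunit NCAPD2 (0.32) rose the most.

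After siBCRP, 11 of the 20 G2/M and mitosis genes were lower, 0 were higher and 9 were not called, with a median of -0.17, where all genes had -0.00. Over all genes 18.7% were lower and 19.4% higher. The largest falls were those of CENPF (-0.41) and of the kinetochore motor CENPE (-0.39), and none of the 20 fell as far as TOP2A. Of these genes, 7 were lower in both comparisons and 3 moved in opposite directions. Of the condensin and cohesin subunits, 4 were lower, 1 was higher and 8 were not called, with a median of -0.05. NCAPD2 fell by 0.36 and SMC4 by 0.27, and NCAPH2, of the other condensin complex, rose by 0.21.

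**Figure D4:**
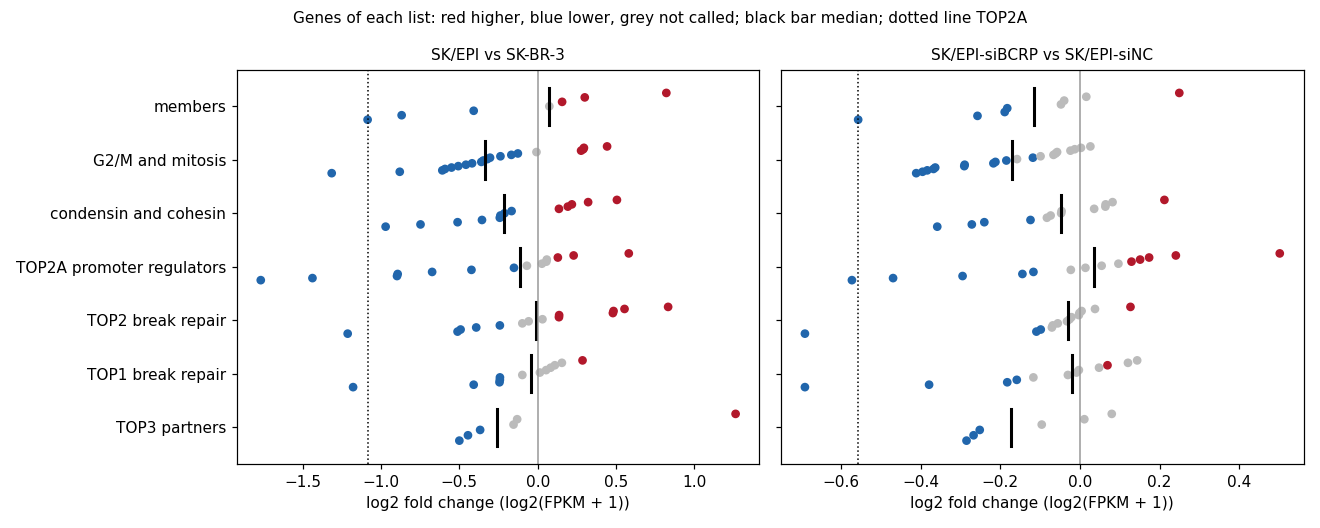
Log2 fold change on the log2(FPKM + 1) scale (horizontal axes, which differ in range) of the tested genes of each list (points; red higher, blue lower, grey not called by limma), with the list median (black bar) and TOP2A (dotted line). The G2/M and mitosis list has its median at -0.33 in SK/EPI and -0.17 after siBCRP, both to the right of TOP2A at -1.09 and -0.56.

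Of 14 factors known to act on the TOP2A promoter or on cell cycle promoters of its kind, 7 were lower in SK/EPI, 3 higher and 4 not called, with a median of -0.11. Over all genes 37% were lower and 37.9% higher, so the share called was near the background. TFDP1, the partner of E2F proteins, fell from 119 to 34.2 FPKM (log2 fold change -1.77), and NFYB, a subunit of the CCAAT-binding NF-Y, from 37.7 to 13.3 FPKM (-1.44). The NF-Y subunit that contacts the box, NFYA, rose by 0.58 and E2F1 by 0.23. After siBCRP, 5 were lower, 5 higher and 4 not called, with a median of 0.03, where 18.7% of all genes were lower and 19.4% higher. The mitotic transcription factor FOXM1 (13.04 to 8.45 FPKM, -0.57) and NFYB (-0.47) fell the furthest. E2F1 (0.50) and TFDP1 (0.24) rose the most. Of the 14, 2 were lower in both comparisons, 1 was higher in both and 5 moved in opposite directions. LIN37, also on this list, shares 54% of exon bases with other genes and reached at most 0.684 FPKM, so its level is uncertain.

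Of 15 listed factors that act in the repair of double-strand breaks left by TOP2, 14 could be tested in SK/EPI. There 6 were higher, 5 lower and 3 not called, with a median of -0.01. Both shares were near those of all genes, 37.9% higher and 37% lower. RBBP8, the end-resection factor CtIP, rose by 0.83 and the break-signalling kinase ATM by 0.55. LIG4, the ligase of non-homologous end joining, fell from 6.49 to 2.22 FPKM (log2 fold change -1.21), and XRCC6, the Ku70 end-binding subunit, fell by 0.51. After siBCRP 1 was higher, 3 were lower and 10 were not called, with a median of -0.03. Of all genes 19.4% were higher and 18.7% lower there. SPRTN, a protease that digests DNA-bound proteins, fell from 1.90 to 0.793 FPKM (log2 fold change -0.69, adjusted p = 0.000126), more than TOP2A on this scale. NBN fell by 0.11, and RAD50 was called higher at 0.13, although 79.7% of its exon bases are shared with another gene.

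Of 12 genes that act on breaks left by TOP1, TDP1 included, 5 were lower in SK/EPI, 1 was higher and 6 were not called. Among all tested genes 37% were lower and 37.9% higher. The list median was -0.04. PARP1, which senses single-strand breaks, fell from 62.5 to 27.0 FPKM (-1.18), and the nuclease subunit ERCC4 rose by 0.29. After siBCRP 4 were lower, 1 higher and 7 not called, with a median of -0.02, where 18.7% of all genes were lower and 19.4% higher. SPRTN, which is on this list too, and the ligase LIG3 (-0.38) fell the furthest, and PARP1 was called higher at 0.07.

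Of the 6 partners of TOP3A and TOP3B, 3 were lower in SK/EPI, 1 was higher and 2 were not called, with a median of -0.26. Among all tested genes 37% were lower, 37.9% higher and 74.9% called in either direction. RMI1, a core subunit of the TOP3A complex, fell by 0.50, TDRD3, the scaffold of TOP3B, by 0.45, and the translocase ERCC6L by 0.37. FMR1, the RNA-binding protein that joins TDRD3, rose from 4.31 to 11.8 FPKM (log2 fold change 1.26). The helicase BLM (-0.13) and RMI2 (-0.15) were not called. After siBCRP FMR1 (-0.28), ERCC6L (-0.27) and RMI2 (-0.25) were lower, and RMI1 (-0.10), TDRD3 (0.01) and BLM (0.08) were not called. In that comparison 18.7% of all genes were lower and 19.4% higher. Among other topoisomerase-like genes, TOP6BL was lower in SK/EPI (6.09 to 3.66 FPKM, log2 fold change -0.61) and was not called after siBCRP (-0.05). The meiotic SPO11 had at most 2 reads and the pseudogene TOP3BP1 at most 3 reads in any library. The pseudogenes TOP1P1 and TOP1P2 were not analysed here.

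TOP2A lies on the arm of chromosome 17 that also carries ERBB2, and 125 annotated genes start within 1 Mb of its start. In SK/EPI, 37 of them could be tested, of which 30 were lower, 4 higher and 3 not called. Among all tested genes 37% were lower and 37.9% higher. The median log2 fold change of the 37 neighbours was -0.995, against -1.09 for TOP2A and 0.01 over all genes. ERBB2 (-2.30) and PSMD3 (-2.10), a proteasome subunit, fell the furthest, and AC080112.1 (1.15) and KRTAP3-1 (0.86) rose the most. The latter pair had low levels, 0.602 to 2.57 FPKM for AC080112.1 and 0.263 to 1.30 for KRTAP3-1. Some of the lower genes were at low levels too, such as IGFBP4 (0.423 to 0.00773 FPKM) and KRT24 (0.444 to 0.0188 FPKM). Most of the tested neighbours lay on the ERBB2 side of TOP2A. On its other side IGFBP4, TNS4, SMARCE1, KRT24, TMEM99 and KRT10 were lower, KRTAP3-1 was higher, and AC018629.1 (0.08) and KRT23 (0.13) were not called. After siBCRP 34 could be tested, of which 12 were lower, 9 higher and 13 not called, where 18.7% of all genes were lower and 19.4% higher. The median of the 34 was -0.03, against -0.56 for TOP2A. There KRTAP3-1 (1.08 to 0.183 FPKM, -0.81) and PGAP3 (-0.51) fell the furthest and TCAP (0.45) and NR1D1 (0.45) rose the most. DNA copy number was not measured here, and its part in these differences was not tested.

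**Figure D5:**
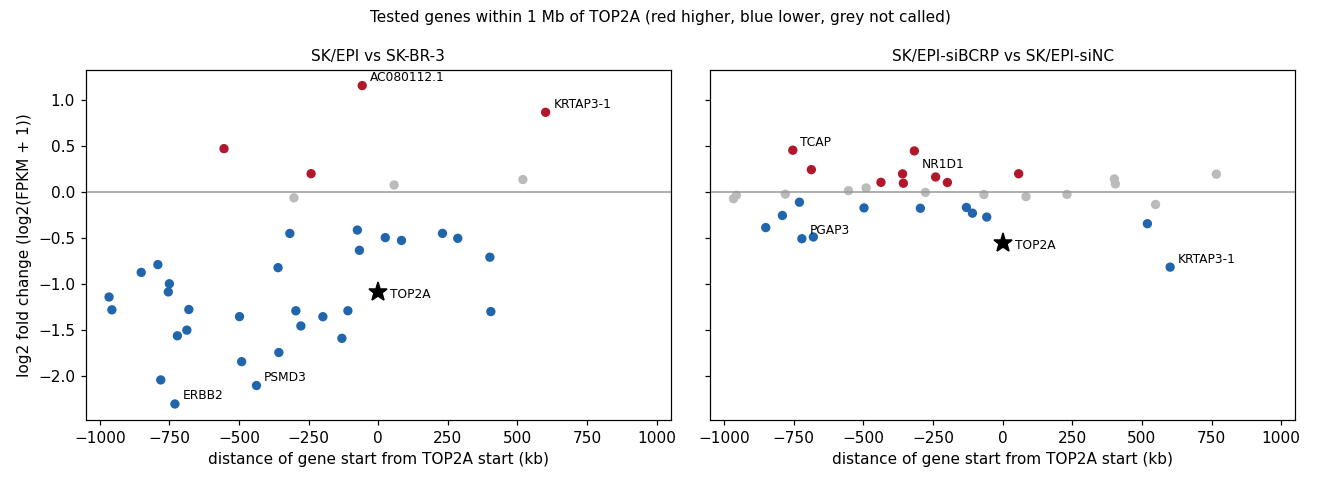
Log2 fold change on the log2(FPKM + 1) scale (vertical axis) of the tested genes that start within 1 Mb of TOP2A, by signed distance of their start from the TOP2A start in kb (horizontal axis), with TOP2A as a star. Blue points (lower) make up 30 of the 37 genes in SK/EPI against SK-BR-3 and 12 of the 34 after siBCRP.

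The genes whose levels ran closest to TOP2A over the 12 libraries were sought among 11486 genes by the root mean square difference of log2(FPKM + 1), centred within each table. They were UBE2W (0.0516), CKAP4 (0.0599), SFT2D2 (0.0646), RAB15 (0.0707) and WIPI1 (0.0725). For TOP2B they included LRCH3 (0.0323), STRN (0.0367), ATP8B1 (0.0368) and PPP1R12B (0.0444). The points share libraries and depth, and the order is a description only.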

How the data were processed

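The authors deposited FPKM values per Ensembl gene in a pair of tables, 1 per pair of groups. The submitters' processing notes name HISAT2 2.0.5, featureCounts 1.5.0-p3, DESeq2 1.16.1 and hg38, and the use of strand and the annotation are not given in the sources used here. Values were whole multiples of 1 read per merged GENCODE 29 exon length (tolerance 0.02 of a read, for values under 200 reads), which gave reads back. Genes were tested if, after scaling to the median depth, 10 reads or more were present in 3 libraries or more, with 15 reads or more in total. The test was made within each table with limma 3.58.1 (R 4.3.3) on log2(FPKM + 1), with group as the only term, eBayes with trend, and Benjamini-Hochberg adjustment over all tested genes at 0.05. Intervals are 95%. The method was also run on simulated data in which far fewer genes changed than were called here. That run checks the code and not the calls reported. Motifs and levels were computed in Python 3.11.15. Per list, the 2 largest called rises and falls were named, all genes of lists of up to 6, the 2 largest called rises and falls within 1 Mb of TOP2A, and the 5 nearest patterns to TOP2A and TOP2B, of which 1 is not reported here. Members and lists were chosen with earlier results of these data known. Alternatives were other filters, a pseudocount of 0.1, equal reads on genes, scaling by median of ratios, voom on reads, a fold threshold, a replicate block and leaving out each library. Every column of per-sample values was used.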

Additional observations from a re-analysis of the deposited data

How the results depend on the processing

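Of 210 values for single members under the alternatives, 203 kept their direction and side of the threshold, as did 83 of 90 counts within 1.5 times. Requiring an absolute log2 fold change of 1 left 1245 genes higher, 1033 lower and 1 member in SK/EPI against SK-BR-3, and 11, 56 and 0 after siBCRP, by construction. TOP1 in SK/EPI became called with equal reads on genes (0.16), without the mitochondrial chromosome (0.17) and with voom (0.16), and ranged from 0.01 to 0.11 when each library was left out. After siBCRP, leaving out each library gave 3 to 5 members called, TDP1 from -0.21 to -0.14, TDP2 from -0.23 to -0.15 and TOP1 from -0.013 to 0.048. TDP1 (-0.17) and TDP2 (-0.17) lost their call without SK/EPI-siBCRP replicate 2, and TOP1 turned to -0.013 without SK/EPI-siNC replicate 1 and to -0.0093 without SK/EPI-siBCRP replicate 3, neither called. The cause was not tested, and each of these fits also had fewer libraries. No pairing by replicate number was detected: correlations of same-numbered deviations were -0.0485 to -0.00201 and 0.00923 to 0.0551, all under 0.1. These values cannot show whether same-numbered libraries were prepared together. With a replicate block 5889 genes were higher and 5767 lower in SK/EPI, 2896 and 2744 after siBCRP, and 6 and 5 members were called. Low read numbers limit TOP3B.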
